A study of Danio rerio with 80 samples.

Results

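The brains of 8 adult female zebrafish that had been exposed early in life to the high level of a mixture of persistent organic pollutants (POP70) were compared with those of 8 control females. These 16 samples were chosen by their labelled condition and sex, out of 80 samples in the whole study, which also covered males, a lower level of the mixture and perfluorooctane sulfonic acid (PFOS) on its own. All fish were wild-type zebrafish of the AB strain, and each library came from the whole brain of 1 fish. Poly-A RNA was sequenced, and the question was whether an exposure that ended in the larva could be seen in the adult brain.

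The control females had received the solvent alone, 0.1% dimethyl sulfoxide (DMSO), from 6 to 96 hours after fertilisation. The POP70 females had received over the same hours the same solvent with the mixture, at 70 times the average blood levels in Scandinavia on which it was modelled. Every group used here carried the solvent and was then raised in clean water. For comparison there were 8 control males, 8 POP70 males, 8 females given the mixture at 10 times the blood levels (POP10) and 8 females given PFOS alone at the amount held by the high mixture, 2.06 mg/L (PFOS70). Each condition had 4 exposure replicates, numbered 3 to 6, which gave 2 females and 2 males each. Age went with the number in every condition: 240 days for number 3, 233 for number 4, 226 for number 5 and 219 for number 6. Females of 1 exposure replicate shared an exposure, and p-values over fish measure only the spread between fish.

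Persistent organic pollutants are long-lived halogenated chemicals that build up in the body, the chlorinated and brominated ones mostly in fatty tissue and the perfluorinated acids, such as PFOS, mostly bound to protein in blood and liver. Planar members of the group bind the aryl hydrocarbon receptor, which switches on detoxifying enzymes, and others act on thyroid, steroid and lipid-sensing nuclear receptors. In the brain, immediate-early genes such as egr1, npas4a and the fos and jun families are transcribed within minutes of neuronal activity, stress or handling, and their RNA is short-lived, so their level in a dissected brain follows the recent past of the animal as well as its lasting state.

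The recovered reads came to 10.6 to 13.7 Mreads (1 Mread is 1000000 reads) in the control females, with a median of 11.7, and to 10.3 to 15 Mreads in the POP70 females, with a median of 11.7. Levels are in RPM, reads per Mread as the deposited scale counts them. This scale is not corrected for gene length, so that levels of different genes were not compared. At the lowest mean level tested, 10 RPM, a gene had 77.6 to 106 reads in these 16 libraries. Markers of neurons, radial glia and oligodendrocytes had reads in every brain of both groups. The median level of snap25a, a synaptic vesicle fusion protein of neurons, was 7067 RPM in control and 6968 RPM in POP70 females. That of mbpa, myelin basic protein, was 6622 RPM and 6164 RPM. The medians were 16.3 and 12.8 RPM for plp1a, also of oligodendrocytes, and 43.6 and 43.1 RPM for gfap of radial glia. Growth hormone (gh1), which marks the pituitary, had 0 reads in 7 of 8 control and 8 of 8 POP70 brains. The other pituitary markers, prl and pomca, had reads in every brain of both groups. The medians in control and POP70 females were 1.3 and 1.43 RPM for prl and 7.26 and 13.3 RPM for pomca.

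No gene passed an adjusted p of 0.05 between POP70 and control females among 10646 genes tested (0% called, limma with Benjamini-Hochberg adjustment over 80 libraries). The smallest adjusted p was 0.9996. At an unadjusted p under 0.05 there were 174 genes (1.63%), of which 51 (0.479%) had the higher mean in POP70 females and 123 (1.16%) the lower. This split depended on the scaling of the libraries, with 88 higher and 62 lower after quantile normalization and 95 higher and 83 lower with median-of-ratios size factors. The median difference over all genes was −0.037 log2, and 35.5% of the genes had the higher mean in POP70 females. The median standard error of a difference was 0.134 log2 and the median 95% interval reached 0.267 log2 to each side of the difference. With only these 16 libraries in the fit, 1 gene passed (0.00939%), zgc:122979. When the exposure replicate number was added to that fit, 4 genes passed (0.0376%), all with the higher mean in POP70 females: zgc:122979, npas4a, egr1 and ier2a. The fit of 80 libraries with the number as a block called 0 genes, with 249 at an unadjusted p under 0.05 and a smallest adjusted p of 0.111, for egr1.

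The genes with the smallest p-values and a higher mean in POP70 females were led by immediate-early genes. Egr1 (chr14:21332522-21336385, minus strand, GRCz11 coordinates as deposited here and below) encodes a zinc-finger transcription factor that is a standard marker of recently active neurons. Its level in the 8 control females was 325 RPM at the lowest, 396 RPM at the median and 542 RPM at the highest. In the 8 POP70 females it was 554, 619 and 820 RPM. The groups did not overlap, which held for 2 genes of all tested (0.0188%), egr1 and mibp. The mean of egr1 was 0.67 ± 0.17 log2 higher (SE, 95% interval 0.32 to 1.01), or 1.59-fold, with an unadjusted p of 0.000245 by limma. The difference was 0.80, 0.64, 0.71 and 0.52 log2 in numbers 3, 4, 5 and 6. Its adjusted p was 0.0134 by limma with only the 16 libraries and the number as a block, where the standard error was 0.092 log2 against 0.17 over the 80 libraries.

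Npas4a (chr14:30636955-30642819), a transcription factor induced by calcium entry into neurons, had levels of 31.0, 52.9 and 94.05 RPM in control females and 70.05, 184 and 362 RPM in POP70 females. Only the lower end of the POP70 range reached into that of the controls. The mean was 1.57 ± 0.47 log2 higher, or 2.97-fold, and the difference was positive in all 4 numbers, from 1.11 log2 in number 4 to 2.38 log2 in number 5. Ier2a (chr3:33761549-33762726), a nuclear immediate-early response protein, ranged from 9.70 to 22.1 RPM in control females, with a median of 13.4, and from 21.5 to 40.6 RPM in POP70 females, with a median of 29.4. The groups met at the edge, and the mean was 1.06 ± 0.31 log2 higher, or 2.08-fold. Their unadjusted p-values were 0.00121 and 0.00124 by limma. In the fit of the 16 libraries with the number as a block, the adjusted p by limma was 0.00977 for npas4a and 0.0352 for ier2a.

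The smallest p of all belonged to zgc:122979 (chr21:5169154-5174054), an entry with a clone name and no annotated role here. It had 41.9, 60.7 and 114 RPM in control females and 99.6, 208 and 324 RPM in POP70 females, with a narrow overlap. The mean was 1.61 ± 0.41 log2 higher, or 3.05-fold (unadjusted p = 0.000228, limma), and its adjusted p was 0.0189 with only the 16 libraries in the fit. Mibp (chr22:5118361-5122557), listed as a muscle-specific beta 1 integrin binding protein, had 14.1, 25.5 and 36.8 RPM in control females and 41.1, 50.8 and 115 RPM in POP70 females. The groups did not overlap, yet the standard error over all 80 libraries was 0.51 log2 around a difference of 1.32 log2, and the unadjusted p was 0.0118 (limma).

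Over the means of the exposure replicates, the unit that received the exposure, the exact two-sided permutation p of 4 against 4 was 0.0286 for each of egr1, npas4a, ier2a, zgc:122979 and mibp. That is the smallest p the design can give. It was shared by 79 of the tested genes, and no adjusted value was under 1. The exact paired test within numbers gave 0.125 for each, the smallest that 4 pairs can give.

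**Figure D1:**
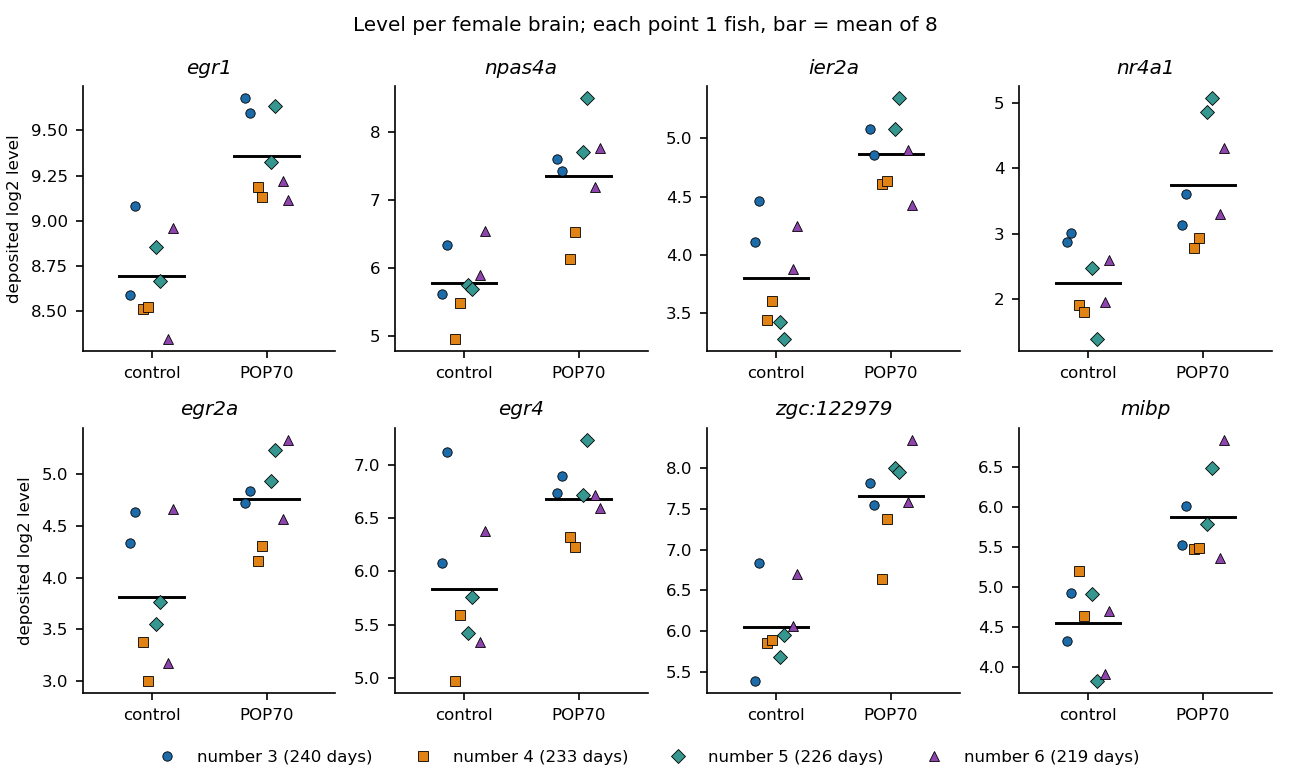
Deposited log2 level (vertical axis) of 8 genes in the 8 control and 8 POP70 female brains, each point 1 fish, colour and shape giving the exposure replicate number, the bar the mean of 8. All POP70 points of egr1 and mibp lie above all control points, while those of npas4a, ier2a, nr4a1, egr2a, egr4 and zgc:122979 overlap with them in part.

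Of 53 immediate-early genes listed in the table, 37 were tested. The list was drawn up with earlier results of these data known, so its direction is not independent evidence. In POP70 females 30 of the 37 had the higher mean, against 35.5% of all genes, and the median difference was 0.23 log2, against −0.037 for all genes. Without number 5 this median was 0.115 log2. No member passed the adjusted threshold, 9 had an unadjusted p under 0.05, each with the higher mean (0.479% of all genes), and 15 had the higher mean in 4 of 4 numbers (3.61% of all genes). In 6 of them, egr1, npas4a, ier2a, sik1, dusp1 and btg2, all 4 replicate means lay above all 4 control means (0.272% of all genes).

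Among the nuclear receptors and further zinc-finger factors of the list, nr4a1 (chr23:32149269-32194397) had 2.60, 4.71 and 8.07 RPM in control females and 6.88, 11 and 33.8 RPM in POP70 females. The groups overlapped only between 6.88 and 8.07 RPM, and the mean was 1.5 ± 0.50 log2 higher (unadjusted p = 0.0037, limma). The difference was 3.05 log2 in number 5 and 0.44 log2 in number 3. Egr2a (chr17:43663504-43677471), a zinc-finger factor, had control levels of 7.99, 12.7 and 25.3 RPM and POP70 levels of 17.8, 27.4 and 40.1 RPM, and its mean was 0.95 ± 0.33 log2 higher. Egr4 (chr23:45579497-45581626), of the same family, had control levels of 31.3, 51.1 and 140 RPM and POP70 levels of 75.0, 105 and 151 RPM. Control fish at 83.6 and 140 RPM lay inside the POP70 range and the other controls below it, and the mean was 0.85 ± 0.36 log2 higher (unadjusted p = 0.0201, limma).

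Kinases and phosphatases were also among the members. Sik1, a salt-inducible kinase, was 0.50 ± 0.22 log2 higher, with 41.6 RPM at the control median and 56.8 RPM at the POP70 median. Dusp1, a phosphatase that switches off MAP kinases, had 7.28, 8.99 and 11.1 RPM in control females and 10.6, 12.2 and 15.1 RPM in POP70 females. The overlap was small and the difference was 0.43 ± 0.22 log2 (unadjusted p = 0.0562, limma). Dusp2, of the same kind, was 0.83 ± 0.40 log2 higher, at 2.25 log2 in number 6 and −0.038 log2 in number 3.

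The AP-1 transcription factors, dimers of Fos and Jun proteins, were less uniform. Fosab had control levels of 7.58, 13.0 and 23.3 RPM and POP70 levels of 12.6, 23.9 and 42.4 RPM, and its mean was 0.79 ± 0.42 log2 higher, mostly through number 5 (2.06 log2). Jund was 0.26 ± 0.13 log2 higher (unadjusted p = 0.0469, limma) and junba 0.56 ± 0.31 log2 higher. The jund difference was −0.018 log2 within number 6 and 0.159 without control fish 1 of number 3. Without number 5 the differences of junba, fosab, sik1 and nr4a1 were 0.28, 0.37, 0.267 and 0.991 log2. Junbb had the lower mean, by −1.14 ± 0.65 log2, with 1 POP70 fish of number 3 at 0 reads and the next lowest POP70 fish at 53.1 RPM. Without that fish its difference was 0.084 log2. Btg2, an antiproliferative protein induced by activity, had 15.4, 26.9 and 28.3 RPM in control females and 27.2, 32.7 and 62.0 RPM in POP70 females, a difference of 0.54 ± 0.31 log2.

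By number, the median difference of the 37 genes was 0.21 log2 in number 3, 0.084 in number 4, 0.625 in number 5 and 0.281 in number 6. All 4 lay above the median of all genes, which was between −0.059 and −0.015 log2. The order in which fish of the groups were handled and sampled is not given, and its part in the levels of these genes was not tested. The leading principal component over all tested genes, which held 39.3% of the variance over the 80 libraries and is counted as rising with the GABA and glutamate genes, had a mean of −0.396 ± 0.723 (SD, n = 8) in control females and −0.673 ± 0.694 in POP70 females, with ranges that overlapped from −1.71 to 0.192.

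**Figure D2:**
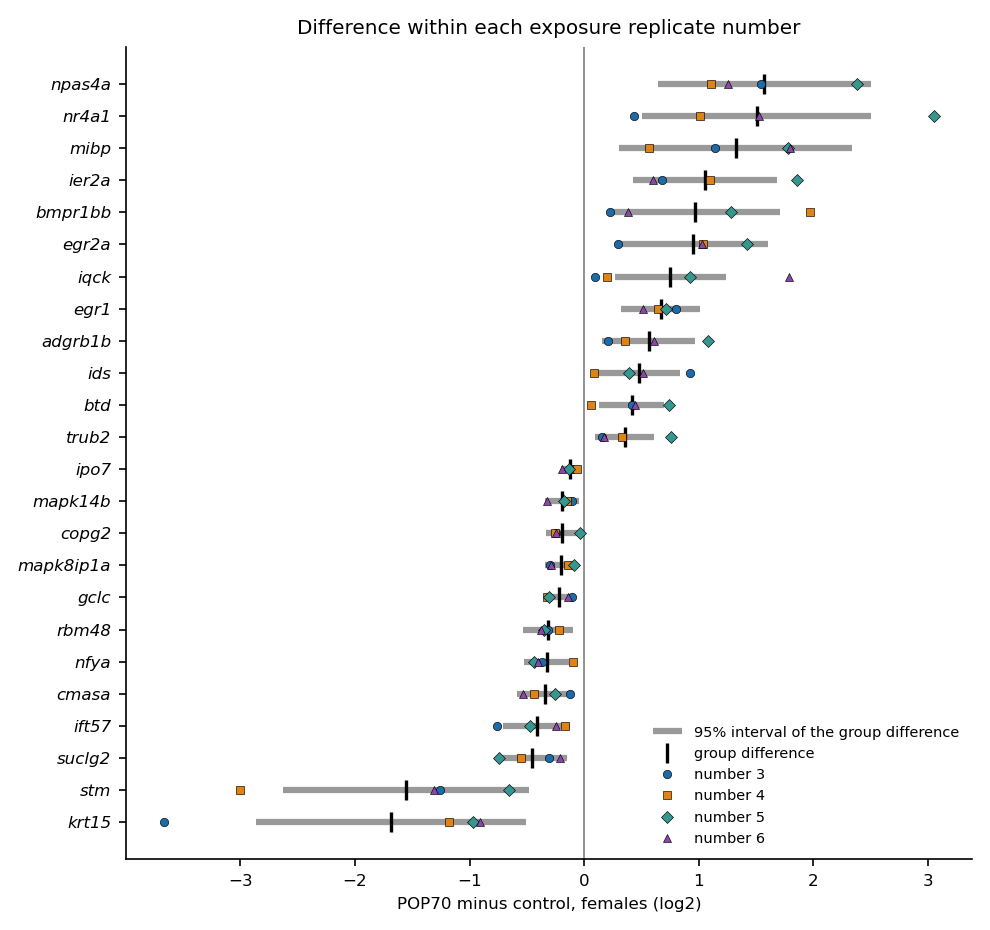
Difference between POP70 and control females (horizontal axis, log2) for the 24 genes with the smallest p-values and the same sign in all 4 exposure replicate numbers, 12 higher and 12 lower. Genes of clone-type name, zgc:122979 among them, were left out. The tick and grey bar give the group difference with its 95% interval and the points the differences within numbers. All points of a gene lie on 1 side of 0, by the rule that chose the genes.

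The other genes with a higher mean in 4 of 4 numbers and the smallest p-values had varied roles, and none passed the adjusted threshold. Adgrb1b, an adhesion G protein-coupled receptor of the brain, had 234, 262 and 398 RPM in control females and 278, 378 and 751 RPM in POP70 females. The groups overlapped between 278 and 398 RPM, and the mean was 0.56 ± 0.20 log2 higher (unadjusted p = 0.00709, limma). Ids, a lysosomal sulfatase that degrades heparan and dermatan sulfate, was 0.48 ± 0.18 log2 higher, with medians of 10.4 and 13.5 RPM. Btd, which recycles the vitamin biotin, was 0.42 ± 0.14 log2 higher, and trub2, a mitochondrial pseudouridine synthase, 0.35 ± 0.13 log2 higher. Bmpr1bb, a receptor for bone morphogenetic proteins, was 0.97 ± 0.37 log2 higher, and iqck, which encodes a calmodulin-binding IQ motif protein, 0.75 ± 0.24 log2 higher, of which 1.79 log2 came in number 6. Counting zgc:122979, 5 genes of clone-type name had p-values as small on the higher side, and 2 did on the lower side.

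On the lower side the leading genes had small differences with small errors. Gclc encodes the catalytic subunit of glutamate-cysteine ligase, the rate-limiting enzyme of glutathione synthesis. It had 82.7, 92.1 and 102 RPM in control females and 68.8, 80.2 and 94.1 RPM in POP70 females. The ranges overlapped between 82.7 and 94.1 RPM. The means differed by −0.22 ± 0.065 log2, or 0.859-fold, with an unadjusted p of 0.00118 (limma). The difference was −0.11, −0.33, −0.30 and −0.14 log2 in numbers 3 to 6. Nfya, a subunit of the CCAAT-binding factor NF-Y, differed by −0.33 ± 0.098 log2, with medians of 44.6 and 35.6 RPM.

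Suclg2, the GTP-forming subunit of succinate-CoA ligase in the citric acid cycle, had medians of 34.2 RPM in control and 23.9 RPM in POP70 females, a difference of −0.45 ± 0.15 log2. Cmasa, which activates sialic acid for glycoproteins, had 67.6, 91.1 and 94.2 RPM in control females and 55.7, 67.9 and 75.3 RPM in POP70 females, a difference of −0.34 ± 0.13 log2. Most of the POP70 fish thus lay below most of the controls, with an overlap between 67.6 and 75.3 RPM. Ift57, a ciliary transport protein, differed by −0.41 ± 0.15 log2. The JNK scaffold mapk8ip1a differed by −0.20 ± 0.069 log2, the p38 kinase mapk14b by −0.19 ± 0.075, the nuclear import receptor ipo7 by −0.12 ± 0.040, the vesicle coat protein copg2 by −0.19 ± 0.070 and the RNA-binding protein rbm48 by −0.32 ± 0.11, each with the lower mean in POP70 females.

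The largest of the 12 lower differences belonged to 2 genes that vary greatly between brains. Stm, starmaker, a matrix protein of the otoliths of the inner ear, had 13.4, 33.0 and 213 RPM in control females and 6.43, 14.3 and 25.0 RPM in POP70 females (−1.56 ± 0.54 log2). Krt15, an epithelial keratin, had 4.17, 12.1 and 951 RPM in control females and 3.24, 5.19 and 14.6 RPM in POP70 females (−1.68 ± 0.59 log2). The value of 951 RPM was that of 1 control fish, the next highest being 38.3 RPM, and without it the difference was −0.873 log2. Both genes are best known from tissue outside the brain. All 8 tested genes of skin, bone and cartilage had the lower mean in POP70 females (64.5% of all genes did), with a median of −0.47 log2, or −0.29 without number 3. Against the same controls the median was −0.57 log2 in POP10 females and −0.488 in PFOS70 females. In POP70 males it was −0.477 log2 against control males, so the shift was not particular to POP70 females. The summed level of the 41 listed genes was 280, 419 and 1480 RPM in control females and 265, 301 and 715 RPM in POP70 females. The part of attached tissue in these values was not tested, and in bulk samples fewer cells of a type and less RNA per cell cannot be told apart.

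The lists of brain cell types were described by counts and medians, without a test. Of 23 tested genes of myelin and oligodendrocytes, the cells that insulate axons, 20 had the lower mean in POP70 females and 8 had it in 4 of 4 numbers (11.6% of all genes). The median was −0.19 log2, at −0.068, −0.37, −0.081 and −0.39 log2 in numbers 3 to 6. Plp1a, a myelin proteolipid, had 13.9, 16.3 and 17.9 RPM in control females and 8.26, 12.8 and 14.0 RPM in POP70 females. The groups touched at about 14.0 RPM, the difference was −0.42 ± 0.22 log2 and the unadjusted p was 0.0613 (limma).

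Cntn1b, an axonal adhesion protein at the edge of the node of Ranvier, had 204, 245 and 277 RPM in control females and 176, 203 and 234 RPM in POP70 females (−0.25 ± 0.10 log2, unadjusted p = 0.0162, limma). It was the member of the list with the smallest p. Nkx6.2, a transcription factor of oligodendrocytes, differed by −0.36 ± 0.19 log2. Mbpa, myelin basic protein, had 5230, 6622 and 10478 RPM in control and 4640, 6164 and 9484 RPM in POP70 females. Its groups overlapped almost wholly (−0.20 ± 0.20 log2), and its difference was 0.38 log2 in number 3 and negative in the other numbers.

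Of 42 tested genes of radial glia, the stem-like glia of the fish brain, 33 had the lower mean (64.5% of all genes), with a median of −0.069 log2. This median was −0.021 without number 4, and 0.105 within number 3. Id1, a BMP target that marks quiescent radial glia in the zebrafish, differed by −0.27 ± 0.13 log2 (medians 211 and 174 RPM). S100b, a calcium-binding protein, had medians of 933 and 847 RPM, and gfap, the glial filament protein, had 43.6 and 43.1 RPM. Control fish 1 of number 4 was high in both, at 1993 and 125 RPM, and without it the differences moved from −0.24 to −0.089 log2 for s100b and from −0.24 to −0.055 for gfap. Of 18 tested genes of microglia, the resident phagocytes, 17 had the lower mean (median −0.13 log2), and of 21 genes of vessels and pericytes 17 did (median −0.17 log2). The microglial median was −0.034 without number 4 and −0.261 without number 5, within which it was 0.208 log2, and the vessel median was −0.020 without number 4. Pdgfrb, the receptor that defines pericytes, differed by −0.23 ± 0.12 log2, or −0.124 without control fish 1 of number 4, while tek, an angiopoietin receptor of endothelium, had the higher mean (0.57 ± 0.35 log2), with 1 POP70 fish at 18 RPM.

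Red-cell genes went the other way. Of 23 tested genes of erythrocytes and haem synthesis, 19 had the higher mean in POP70 females, against 35.5% of all genes. The median was 0.22 log2, but −0.031 log2 within number 5. The member with the smallest p, nt5c2l1, had 23.9, 36.1 and 72.9 RPM in control and 47.0, 67.5 and 106 RPM in POP70 females (0.79 ± 0.40 log2, unadjusted p = 0.0524, limma). The groups overlapped between 47.0 and 72.9 RPM. The entries of hbba1, a globin, had medians of 396 and 1055 RPM in control and 368 and 1109 RPM in POP70 females. Their differences of 0.348 and 0.459 log2 were 0.135 and 0.214 without number 4. Hbaa1 and alas2 had medians of 456 and 70.8 RPM in control and 628 and 71.8 RPM in POP70 females. The summed level of the list was 2637, 3908 and 5542 RPM in control and 3324, 4164 and 9936 RPM in POP70 females. How much blood stayed in each brain is not known, and its part in other differences was not tested.

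Of the genes of neuronal function, 27 of 41 for synaptic vesicles and mature neurons, 33 of 49 for GABA and glutamate transmission, 20 of 29 for monoamines and acetylcholine and 21 of 26 potassium and sodium channels had the lower mean in POP70 females, against 64.5% of all genes. The median was −0.051, −0.073, −0.062 and −0.084 log2 in the same order. With the leading principal component as a covariate it was 0.0026 for the first and 0.046 for the last of these lists. That component was taken from the same values, these genes included, so the adjustment can remove a difference of the lists themselves. Comtb, which breaks down catecholamines, had medians of 14.2 and 9.16 RPM (−0.58 ± 0.24 log2, unadjusted p = 0.0188, limma), while th, tyrosine hydroxylase, the rate-limiting enzyme of dopamine synthesis, had 11.6 and 10.3 RPM (−0.33 ± 0.26 log2). The channel with the smallest p was kcna1a (−0.84 ± 0.65 log2). Among 42 tested neuropeptide genes 23 had the higher mean. Sst1.1, somatostatin, had 61.9, 129 and 333 RPM in control and 134, 212 and 290 RPM in POP70 females (0.62 ± 0.29 log2, unadjusted p = 0.0377, limma). The POP70 range lay inside the control range and above its median.

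Regional genes gave 27 higher and 26 lower means among 53 tested, with a median of 0.0077 log2. Eomesa and tbr1b, transcription factors of the dorsal forebrain, had higher means by 0.64 ± 0.39 and 0.81 ± 0.50 log2, through number 6, where the differences were 1.99 and 2.57 log2. The lowest control fish had 4.93 RPM of tbr1b against a control median of 59.3 RPM. Irx3a, an Iroquois transcription factor of brain patterning, had 39.9, 81.2 and 91.0 RPM in control and 47.5, 55.6 and 66.5 RPM in POP70 females (−0.36 ± 0.13 log2, unadjusted p = 0.00768, limma), with 1 low control fish. Photoreceptor and pineal genes had a median of 0.66 log2 over 13 tested members, which was 3.14 log2 in number 6 and −1.20 log2 in number 5, and −0.31 log2 without number 6. None of 48 hox genes, which mark hindbrain and spinal cord, reached the tested level.

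**Figure D3:**
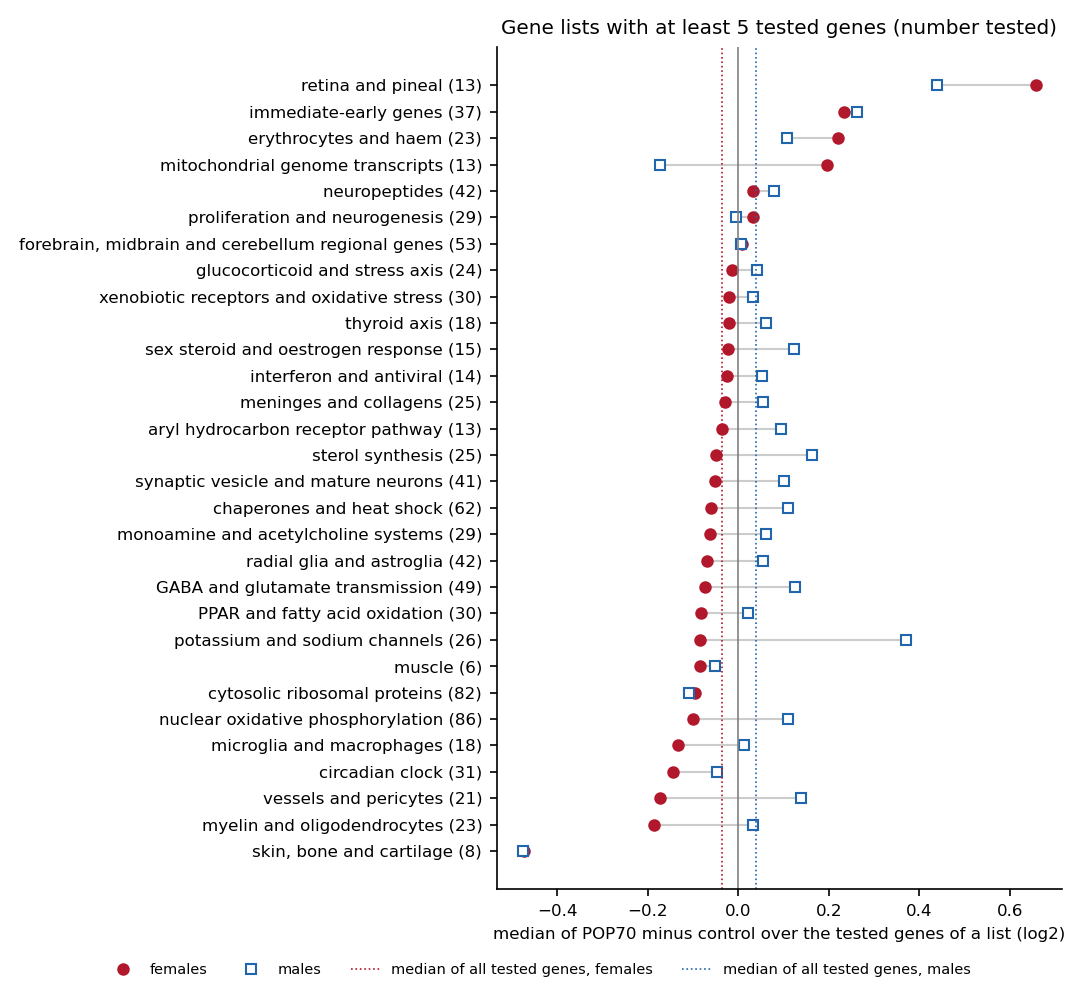
Median difference between POP70 and control (horizontal axis, log2) over the tested members of each gene list with at least 5 of them (vertical axis, number tested in parentheses), filled circles for females and open squares for males, with dotted lines at the medians of all tested genes. Immediate-early genes lie above 0 in both sexes, while mitochondrial genome transcripts and nuclear oxidative phosphorylation genes lie on opposite sides in females and males.

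Receptor pathways that such chemicals are known to engage stayed close to the shift of all genes. Of 13 tested genes of the aryl hydrocarbon receptor pathway 6 had the higher mean (median −0.036 log2, but 0.038 after quantile normalization). Tiparp, a target that limits the receptor, had medians of 59.1 and 65.0 RPM (0.21 ± 0.12 log2). Cyp1a, the pathway's best-known target, lay under the tested level, with medians of 0.122 RPM in control and 0.331 RPM in POP70 females. Of 30 genes of xenobiotic receptors and oxidative stress 21 had the lower mean (median −0.021 log2, but 0.012 with size factors). These included gclc and gpx4a, a peroxidase that protects membrane lipids, which had 153, 201 and 371 RPM in control and 87.4, 147 and 234 RPM in POP70 females (−0.54 ± 0.22 log2, unadjusted p = 0.0169, limma). The gpx4a difference was 0 in number 3, to 2 decimals of log2, and −0.94 log2 in number 6.

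In the thyroid list 7 of 18 genes had the higher mean (median −0.021 log2, but 0.012 with size factors). Slc7a8a, an amino acid and thyroid hormone transporter, had 129, 170 and 191 RPM in control and 146, 189 and 223 RPM in POP70 females (0.19 ± 0.092 log2, unadjusted p = 0.0401, limma), and dio1, an iodothyronine deiodinase, had the lower mean in 4 of 4 numbers (−0.47 ± 0.28 log2). Fatty acid oxidation and its PPAR regulators had the lower mean in 23 of 30 genes (median −0.083 log2), sterol synthesis in 17 of 25 (−0.049, but 0.0042 without number 4 and −0.134 without number 3) and the sex steroid list in 8 of 15 (−0.023, but 0.010 with size factors). Fabp11a, a fatty acid binding protein, differed by −0.37 ± 0.18 log2, and hmgcrb, the rate-limiting enzyme of cholesterol synthesis, by −0.17 ± 0.096.

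In the stress axis 11 of 24 genes had the higher mean (median −0.013 log2, but 0.020 after quantile normalization or with size factors). Fkbp5, a chaperone of the glucocorticoid receptor that cortisol induces, had 14.3, 22.4 and 172 RPM in control and 9.27, 124 and 530 RPM in POP70 females. The groups overlapped over most of the range, and the difference of 1.69 ± 0.91 log2 was 2.88 and 3.5 log2 in numbers 5 and 6 and −0.39 log2 in number 4. Crhb, corticotropin-releasing hormone, had medians of 61.4 and 77.2 RPM (0.20 ± 0.13 log2), and nr3c1, the receptor itself, had 142 and 126 RPM (−0.064 ± 0.077). Of 31 circadian clock genes 25 had the lower mean (median −0.14 log2, or −0.219 without number 3). In 4 of 4 numbers 5 had it (11.6% of all genes). None had an unadjusted p under 0.05 in the fit without the number as a block (limma). The error of that fit holds the spread between numbers, which was wide for clock genes such as cry2, so this count decides little. Cry2, a repressor of the clock, ranged from 22.5 to 101 RPM in control and from 21.9 to 72.8 RPM in POP70 females. Much of this range lay between numbers. Control fish had 22.5 and 33.7 RPM in number 5 and 73.5 and 101 RPM in number 6. POP70 fish had 24.3 and 21.9 RPM in number 5 and 54.7 and 72.8 RPM in number 6. Among protein-folding genes, 48 of 62 chaperones had the lower mean (median −0.060 log2). The cytosolic chaperonin subunit cct6a differed by −0.17 ± 0.075 log2 (unadjusted p = 0.026, limma), with medians of 218 and 192 RPM. Genes of proliferation and neurogenesis had the higher mean in 16 of 29, with a median of 0.032 log2. Genes of meninges and collagens had the lower mean in 18 of 25 and those of interferon and antiviral defence in 8 of 14, with medians of −0.028 and −0.026 log2, both above 0 after quantile normalization and with size factors.

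A few immune and peptide genes were near 0 in some fish and high in others of the same group. Mhc1uba, a class I histocompatibility gene, had medians of 0.233 RPM in control and 91.4 RPM in POP70 females, with maxima of 115 and 124 RPM, and its difference of 3.98 log2 was 1.99 without number 4. Mhc1zba, of the same family, had 49.8, 110 and 197 RPM in control and 3.21, 76.2 and 113 RPM in POP70 females (−1.11 ± 0.44 log2). Without the POP70 fish at 3.21 RPM the difference was −0.535 log2. Scg5, a chaperone of prohormone convertase, stood at 2 loci. At the locus on chromosome 19, 4 of 8 control fish had 5 to 20 reads and the others at least 694, while 1 of 8 POP70 fish had 16 reads and the others at least 665. At the locus on chromosome 20, 0 of 8 control fish and 2 of 8 POP70 fish were low, with 4 and 7 reads. No fish was low at both loci. Reads of near-identical family members can be split by the counting. Its part in these values was not tested, nor was any other source, and the values of these genes are uncertain.

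The energy-producing genes of the mitochondrion, encoded in 2 genomes, differed in direction between those genomes. All 13 protein-coding transcripts of the mitochondrial genome had the higher mean in POP70 females, with a median of 0.20 log2. In 4 of 4 numbers 8 had it (3.61% of all genes). Mt-nd5, a subunit of complex I, had 3233, 4037 and 6027 RPM in control and 3249, 4922 and 7958 RPM in POP70 females (0.31 ± 0.15 log2, unadjusted p = 0.0427, limma), with ranges that overlapped almost wholly. Of 86 tested nuclear genes of oxidative phosphorylation, 79 had the lower mean (median −0.099 log2) and 33 had it in 4 of 4 numbers (11.6% of all genes). Sdhc, a membrane anchor of complex II, had medians of 126 and 102 RPM (−0.21 ± 0.16 log2), and ndufb7, of complex I, had 257 and 243 RPM (−0.16 ± 0.11 log2).

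As a share of all reads, mitochondrial genome transcripts took 9.34%, 10.7% and 15.3% in control females and 9.13%, 13.2% and 16.4% in POP70 females. The means were 11.6% and 13.1%, and the exact permutation p over 4 against 4 replicate means was 0.4, with 0.125 in the exact paired test, the smallest p that 4 pairs can give. In number 6 the share was 12.6% in control and 15.8% in POP70, and in number 5 9.46% and 9.63%. The nuclear genes of oxidative phosphorylation took 1.44% and 1.38% of the reads (exact permutation p = 0.629, exact paired p = 0.125), with the lower share in POP70 in 4 of 4 numbers. Transcripts of 1 genome share a source within each brain, so the 13 genes are not separate observations. Of 82 cytosolic ribosomal protein genes 78 had the lower mean (median −0.095 log2), against 64.5% of all genes. They took 4.29% of the reads in control and 4.04% in POP70 females (exact permutation p = 0.429, exact paired p = 0.125). Without number 3 the median difference was −0.057 log2. In POP70 males it was −0.109 log2, and against the same control females −0.114 in POP10 and −0.226 in PFOS70 females. Rpl31, of the large subunit, had medians of 1114 and 1002 RPM (−0.15 ± 0.083 log2).

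**Figure D4:**
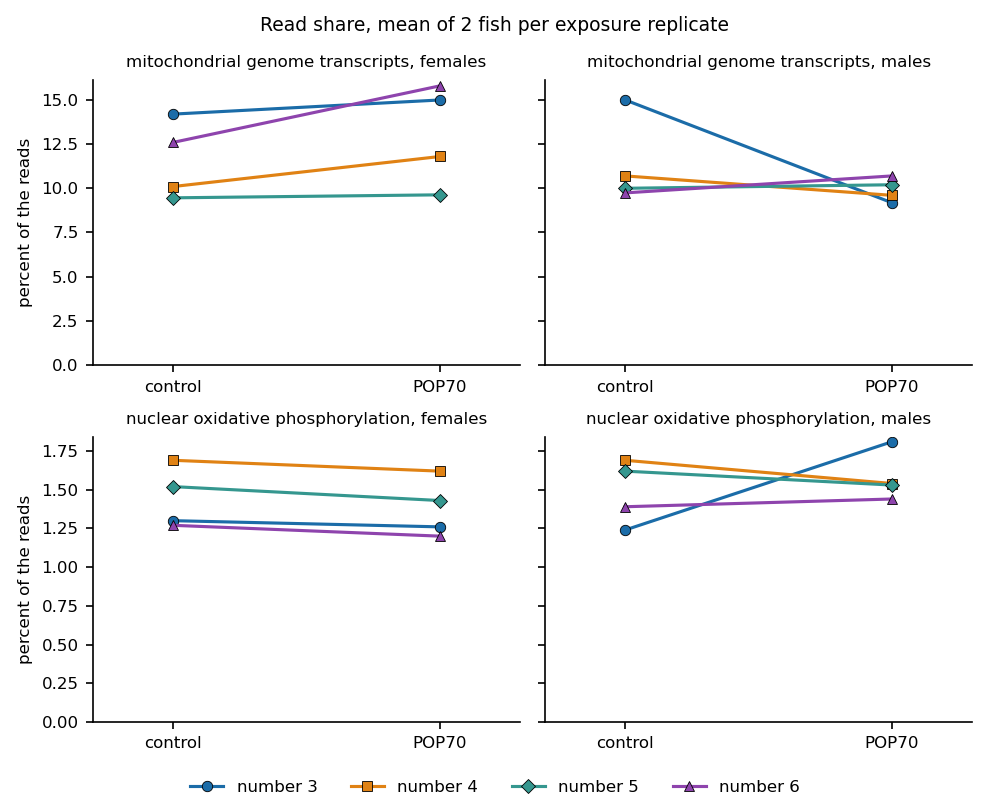
Percent of the reads (vertical axis, from 0) from mitochondrial genome transcripts (top) and nuclear oxidative phosphorylation genes (bottom) in control and POP70 brains, females left and males right, each point the mean of 2 fish of 1 exposure replicate and each line 1 number. The mitochondrial share in females was higher in POP70 than in control in 4 of 4 numbers, from 9.63% against 9.46% in number 5 to 15.8% against 12.6% in number 6.

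Males of the same exposure replicates were set beside the females. In POP70 males, too, 0 genes passed the adjusted threshold (0% called, limma), with 220 at an unadjusted p under 0.05 (2.07%). The test of the difference between the sexes called 0 genes (0%, limma), with 213 at an unadjusted p under 0.05 (2%) and a smallest adjusted p of 0.943. With the number as a block 0 genes passed in either comparison (limma). At an unadjusted p under 0.05 there were then 386 genes in males and 457 between the sexes. The smallest adjusted p was 0.443 in males and 0.811 between the sexes (limma with the block). The female difference lay above the male one in 34.6% of the genes. Of all tested genes 59.7% had mean differences of opposite sign in females and males, and the median difference in males was 0.038 log2. These medians depended on the scaling of the libraries. The median sex difference was −0.068 log2 here, 0.023 after quantile normalization and 0.0048 with median-of-ratios size factors. The male median was −0.016 log2 after quantile normalization and −0.00088 log2 with size factors.

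The immediate-early list had the higher mean in 30 of 37 genes in males (61.6% of all genes) as in females, with medians of 0.26 and 0.23 log2. Nr4a1 was 1.86 ± 0.50 log2 higher in POP70 males (unadjusted p = 0.000408, limma), egr1 0.45 ± 0.17 and npas4a 1.3 ± 0.47 log2 higher. Egr1 in males overlapped, with 363, 479 and 908 RPM in control and 342, 725 and 1072 RPM in POP70 fish. The test of the sex difference gave 0.22 ± 0.24 log2 for egr1 (unadjusted p = 0.374, limma) and 0.27 ± 0.66 log2 for npas4a (unadjusted p = 0.679, limma), so that a difference between the sexes was not detectable at this error.

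Lists of the mitochondrion had opposite signs in the sexes. In males all 13 mitochondrial genome transcripts had the lower mean (median −0.17 log2) and 75 of 86 nuclear oxidative phosphorylation genes the higher (0.11 log2). The mitochondrial share was 11.3% in control and 9.94% in POP70 males, and the female difference less the male difference was 2.88 points, with an exact permutation p of 0.229 over replicate means. In males the share of number 3 went from 15% in control to 9.18% in POP70 fish, while that of number 6 went from 9.74% to 10.7%. Myelin genes had a median of 0.033 log2 in males against −0.19 in females, vessel genes 0.14 against −0.17, and potassium and sodium channels 0.37 against −0.084. The leading principal component had a mean of −0.28 in control males, with 1 fish at −2.58, and 0.328 in POP70 males, and its part in these male medians was not tested. Cntn1b differed between the sexes by −0.34 ± 0.14 log2 (unadjusted p = 0.0215, limma).

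The genes with the smallest p in the test between the sexes did not pass it. Ddx11, a DNA helicase of chromosome cohesion, had 11.9, 18.4 and 23.5 RPM in control and 18.3, 22.3 and 28.5 RPM in POP70 females. POP70 and control differed by 0.45 ± 0.18 log2 in females and −0.35 ± 0.18 in males (sex difference 0.80 ± 0.25, unadjusted p = 0.00208, limma). Rars, the arginyl-tRNA synthetase, differed by −0.19 ± 0.10 log2 in females and 0.28 ± 0.10 in males (sex difference −0.48 ± 0.14, unadjusted p = 0.00144, limma). Eif4a3, a core of the exon junction complex, differed by −0.19 ± 0.088 log2 in females and 0.17 ± 0.088 in males. Ids and trub2 of the higher side and nfya and ift57 of the lower side in females also had the opposite sign in males, with sex differences of 0.73, 0.49, −0.38 and −0.59 log2.

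Females of the lower mixture level and of PFOS alone shared the 8 control females with the POP70 comparison, so their differences from control are given side by side and were not set against each other. In POP10 females 3 genes rose against control (0.0282%, limma, with 344 or 3.23% at an unadjusted p under 0.05): egr1 by 0.93 ± 0.17 log2 (adjusted p = 0.0101, limma), ier2a by 1.59 ± 0.31 log2 (adjusted p = 0.0115, limma) and egr4 by 1.86 ± 0.36 log2 (adjusted p = 0.0101, limma). With the number as a block there were 5, npas4a and fosab among them, with 537 genes at an unadjusted p under 0.05 (limma). In fits without the block, 0 genes passed when exposure replicate 5 or exposure replicate 6 was left out. Over the means of the 2 females per exposure replicate, 0 genes passed, and 1 did with the block. In POP70 females these 3 differences were 0.67, 1.06 and 0.85 log2, and in PFOS70 females 0.30, 0.32 and 0.36 log2. In PFOS70 females 0 genes passed (0%, limma), with 290 at an unadjusted p under 0.05 (2.72%), and 1 passed without exposure replicate 5. With the number as a block 0 genes passed in PFOS70 females, with 477 at an unadjusted p under 0.05 (limma). The immediate-early list had the higher mean in 34 of 37 genes in POP10 females (median 0.22 log2, against 52.4% of all genes), in 30 in POP70 females (0.23) and in 27 in PFOS70 females (0.11, against 53.4% of all genes).

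**Figure D5:**
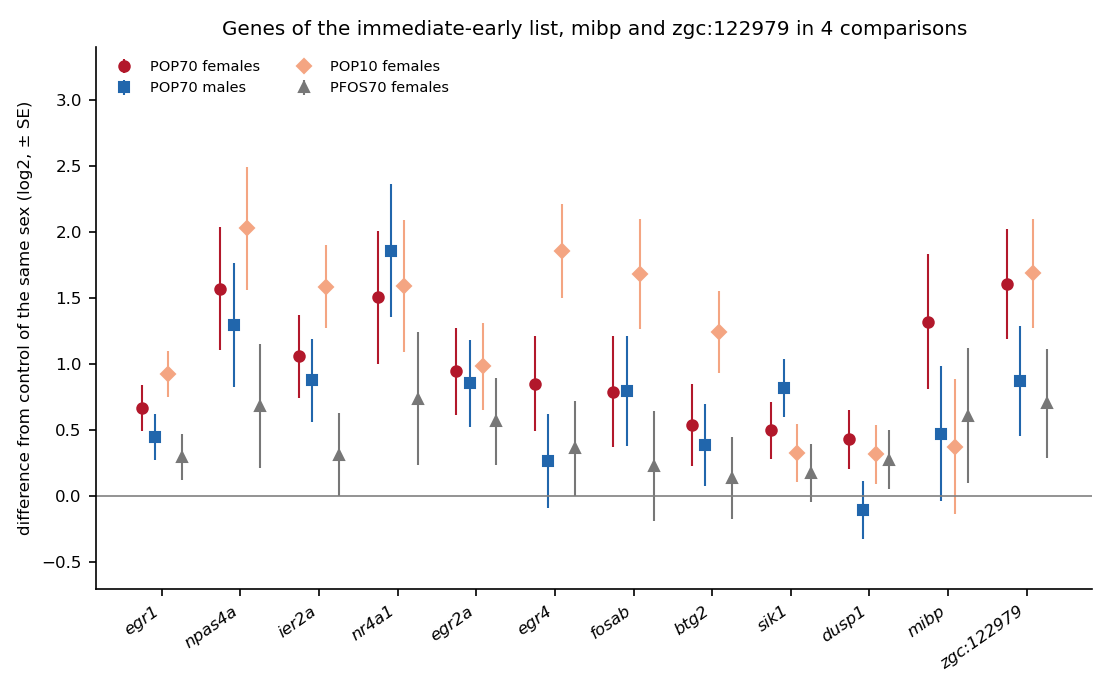
Difference from control of the same sex (vertical axis, log2, bars ± SE from limma) for 10 immediate-early genes, mibp and zgc:122979 in POP70 females, POP70 males, POP10 females and PFOS70 females, the females sharing the 8 control females. Egr1, ier2a and egr4, the genes that passed in POP10 females, stood at 0.93, 1.59 and 1.86 log2 there. Nr4a1 stood at 1.86 log2 in POP70 males.

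Tested directly, POP70 females against POP10 females gave 0 genes past the threshold (0%, limma), with 716 at an unadjusted p under 0.05 (6.73%), the higher mean in POP70 females in 40.4% and a smallest adjusted p of 0.437. With the number as a block 0 genes passed, with 1401 at an unadjusted p under 0.05 and a smallest adjusted p of 0.111 (limma). POP70 minus POP10 was −1 log2 for egr4 (unadjusted p = 0.00646, limma), while it was −0.26 log2 for egr1 (unadjusted p = 0.143, limma) and −0.46 log2 for npas4a (unadjusted p = 0.332, limma). Fstl3, a secreted inhibitor of activin, had the smallest p, at 2.06 log2 higher in POP70 females (unadjusted p = 6.26e-05, limma). It was 0.97 ± 0.49 log2 above control in POP70 females, with 4.1, 16 and 31.2 RPM in control and 10.1, 29.7 and 46.8 RPM in POP70 fish, and −1.09 ± 0.49 log2 against control in POP10 females. Snx30, an endosomal sorting nexin, had a POP70 minus POP10 difference of −0.32 log2 (unadjusted p = 8.21e-05, limma).

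POP70 females against PFOS70 females also gave 0 genes (0%, limma), with 577 at an unadjusted p under 0.05 (5.42%), the higher mean in POP70 females in 39.9% and a smallest adjusted p of 0.734. With the number as a block 0 genes passed, with 1113 at an unadjusted p under 0.05 and a smallest adjusted p of 0.369 (limma). Gclc differed by −0.24 log2 from PFOS70 females and by −0.23 log2 from POP10 females (unadjusted p = 0.000387 and 0.000673, limma), and in those 2 groups it lay 0.022 and 0.011 log2 from control. Synrg, an adaptor of clathrin-coated transport, differed by −0.34 log2 (unadjusted p = 0.00033, limma), and arpc5la, a subunit of the actin-branching Arp2/3 complex, by 0.25 log2. With library weights 3 genes passed in this comparison, all lower in POP70 females, copg2, synrg and ccdc85cb. The immediate-early genes egr1, ier2a and npas4a were 0.37, 0.74 and 0.89 log2 higher than in PFOS70 females, with unadjusted p-values of 0.0347, 0.021 and 0.0609 (limma). Egr1, ier2a, npas4a and gclc were picked for differences of the same POP70 females from control. Their p-values against PFOS70 or POP10 females are therefore not independent evidence.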

How the data were processed

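Whole-brain RNA of 80 fish was sequenced. Per the labels' protocols, poly-T beads were used on 2 µg of RNA, followed by the NEBNext Ultra kit and 150 bp paired reads, with 20 Mreads planned. GRCz11, STAR 2.5.4b, Trim Galore 0.4.5, R 3.5.0 and DESeq2 are named, without roles, in the submitters' processing notes. Counting, annotation and library scaling are not given in the sources used here. Per the file headers, the deposited values are log2 normalized expression. Values under 5000 reads were whole reads within 0.02 read times a library factor in 100% of cases, and 0 reads stood as 0.9 read. The factor is smaller than the recovered Mreads, for a reason not known here.

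Genes with a mean of at least 10 on the linear scale over 80 libraries (10646 of 23473 entries) were fitted with limma 3.58.1 in R 4.3.3: 10 group means, a mean-variance trend, two-sided tests, Benjamini-Hochberg adjustment and a threshold of 0.05. The limma fit was tested on simulated data with planted differences and fish drawn independently. That does not test its error where fish share an exposure. Exposure replicate numbers pair the samples, since each marks 1 age in the labels: female deviations of equal number correlated at 0.296 to 0.467 (4 pairs) and those of other numbers at −0.401 to 0.132 (12). Counts of genes with the number as a block stand beside those without it. P-values of single genes are from fits without the block unless stated. The gene lists, panel and alternatives were chosen with earlier results of these data known. Named genes are those past the threshold. Otherwise they are the 12 smallest p-values each way with 1 sign in 4 of 4 numbers, up to 3 members per list, up to 5 each way between sexes or exposures, and a panel. Clone-type names were left out of the 12 each way and of the 5 each way. Some others (such as dusp1, btg2, fosab, jund, dusp2 and junba) were named after their values were seen.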

Additional observations from a re-analysis of the deposited data

Results flagged for a closer look

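Among the named genes 16 groups of 8 female brains held 1 fish apart from the rest, in that the gap to its nearest neighbour was over 0.526 of the range of the group's log2 levels. Of 212 groups examined this was 7.55%, and chance gives about 1 in 20. In control females the fish lay above the others for adgrb1b (398 against 295 RPM, share of the range 0.561), krt15 (951 against 38.3 RPM, 0.592), gpx4a (371 against 208 RPM, 0.655), the mitochondrial transcript mt-atp8 (2213 against 1501 RPM, 0.549), the cytokine-signalling inhibitor socs3b (53.5 against 18.8 RPM, 0.746) and the keratin krt8 (214 against 124 RPM, 0.813). It lay below them for jund (135 against 201 RPM, 0.528), btg2 (15.4 against 21.9 RPM, 0.577), irx3a (39.9 against 67.1 RPM, 0.63) and the cholesterol carrier stard4 (48.3 against 63.0 RPM, 0.559).

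In POP70 females it lay below the others for junbb (0.107 against 53.1 RPM, 0.822), the chromosome 19 locus of scg5 (2.02 against 84.9 RPM, 0.774), mhc1zba (3.21 against 48.3 RPM, 0.761), tek (18 against 56.5 RPM, 0.564), stard4 (28.2 against 46.2 RPM, 0.542) and snx30 (25.0 against 29.1 RPM, 0.578). Control fish 1 of number 3 held 4 of these values and control fish 1 of number 4 held 3.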

How the results depend on the processing

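Between POP70 and control females, 1 gene passed with only these 16 libraries, 4 with those and the replicate block, and 0 in every other fit run, leave-outs included. The replicate block over the 80 libraries left the count at 0 there, between the sexes and for POP70 against POP10 or PFOS70 females. It changed no other call than in POP10 females, where 3 genes became 5 with the replicate block, 0 over replicate means, 1 over those with the replicate block, 7 with library weights, and 0 to 4 when a replicate number was left out. Library weights gave 3 genes against PFOS70 females, and PFOS70 females against control had 0 to 1 when a number was left out. The causes were not tested.

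List medians moved by over a replicate SD in 19 of 380 values. This SD was that of the medians by number, so a list whose numbers differ could change much without being counted. The immediate-early median, 0.233 and 0.115 without number 5, was not counted. The replicate block and the replicate means leave the differences as they are, so medians could not move there. The median of sex steroids was 0.0568 with no filter, 0.0048 after quantile normalization, 0.01 with size factors and −0.0269 to 0.047 without a number. That of synaptic genes was −0.0149 at a mean of 100, −0.0179 (quantile), −0.018 (size factors), 0.00264 (principal component covariate) and −0.0825 to −0.0226 without a number. Channels had 0.0462 with the principal component covariate and −0.17 to −0.0838 without a number, and red-cell genes 0.15 to 0.414. Nuclear oxidative phosphorylation had −0.0709, −0.0663 and −0.0715 (quantile, size factors, covariate), and at a mean of 100 monoamines had 0.179 and muscle 0.213. The aryl hydrocarbon, xenobiotic, thyroid and glucocorticoid medians changed sign with a scaling. Junbb was −1.89 to 0.18 log2 and oxt (oxytocin) −0.18 to 1.16 with fish or numbers left out. Of 3541 single-gene values 3532 kept direction and call, 6 came to pass the threshold and 3 (those of junbb and oxt) changed sign. The replicate block, the replicate means and the 16-library fits leave single-gene differences as they are, so signs could not change there. A test of recovered reads by edgeR's quasi-likelihood and the 16-library fit of other contrasts were not run. With 8 fish a group the median interval reached 0.267 log2 to each side, and for a gene of median error a smaller difference was within its interval.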
